A study of Homo sapiens with 15 samples.

Results

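The genes followed here are the core of the NRF2 antioxidant response: the transcription factor gene NFE2L2, which encodes NRF2, its inhibitor KEAP1, and 7 genes that NRF2 is known to switch on (NQO1, GCLC, GCLM, TXNRD1, SRXN1, HMOX1 and TXN). They were listed by symbol, and all 9 were found among the 37787 genes of the count table. RNA was sequenced from HGrC1, an immortalised human granulosa cell line derived from non-luteinised cells that carries normal FOXL2 alleles. Plasmids were introduced by lipofection for 4 h into cells at passage 14, and RNA was taken after a further 24 h in serum-free medium. The 15 libraries fell into 5 conditions of 3 replicates (A, B and C). Vectors received empty plasmids, and the other conditions received SMAD3 with wild-type FOXL2 (FOXL2WT), SMAD3 with the C134W form of FOXL2 (FOXL2C134W), or either combination together with FOXO1-3A, a constitutively active FOXO1 (FOXL2WT + FOXO1 and FOXL2C134W + FOXO1). FOXL2C134W is the recurrent mutation of adult granulosa cell tumours. Because SMAD3 accompanied every FOXL2 plasmid, an effect of FOXL2 against Vectors cannot be told apart from an effect of SMAD3. The system is transient overexpression in a single cell line whose own FOXL2 stays normal, and transfected and untransfected cells of a well were sequenced together, so fewer responding cells and less RNA per cell cannot be told apart.

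NRF2 is made continuously and destroyed continuously: KEAP1 holds it in the cytoplasm and hands it to the CUL3 ubiquitin ligase. Oxidants and electrophiles modify cysteines of KEAP1, NRF2 then accumulates, pairs with a small MAF protein in the nucleus and binds antioxidant response elements, while BACH1 competes for the same elements. Its targets rebuild glutathione (GCLC and GCLM, the catalytic and modifier subunits of glutamate-cysteine ligase), keep thioredoxin reduced (TXN, TXNRD1), repair oxidised peroxiredoxins (SRXN1), detoxify quinones (NQO1) and break down heme (HMOX1). In the ovary, granulosa cells surround the oocyte and meet oxidants at ovulation, and FOXO factors are known as a separate route to antioxidant enzymes such as SOD2 and CAT.

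Promoter sequence was available from RefSeq (GRCh38.p14) for 8 of the 9 genes, in 11 windows that reach from 250 bases before to 50 bases after a transcription start, with a second start for NFE2L2, KEAP1 and TXNRD1. HMOX1 had no entry. The search covered both strands for 3 motifs: the core of the antioxidant response element (TGACNNNGC), a forkhead motif bound by FOXO and FOXL2 relatives (GTAAACA) and a palindromic SMAD motif (GTCTAGAC). The antioxidant core was present in 4 of the 11 windows, belonging to 3 genes, GCLM, TXNRD1 and KEAP1. Among all 35116 promoter windows of this length, 13.3% held it. TXNRD1, the member with the smallest p across conditions, is shown as the 251 bases that end at the first base of its upstream start, chr12:104215529-104215779 on the plus strand, with both copies of the core in capitals, the second of them on the opposite strand:
TXNRD1 upstream promoter: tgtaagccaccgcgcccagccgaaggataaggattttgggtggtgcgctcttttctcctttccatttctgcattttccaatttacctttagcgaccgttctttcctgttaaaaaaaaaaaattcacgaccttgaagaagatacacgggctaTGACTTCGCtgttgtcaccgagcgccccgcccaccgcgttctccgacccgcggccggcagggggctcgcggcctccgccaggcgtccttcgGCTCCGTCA

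The remaining copies are printed with 10 bases on each side, read along the gene's own strand, so that the cores can be compared. The windows lie at chr12:104286920-104286948 (plus strand, before the downstream start of TXNRD1), chr1:93909446-93909474 (minus strand, GCLM), and chr19:10502784-10502812 and chr19:10502807-10502835 (minus strand, before the second start of KEAP1). The GCLM copy and 1 of the KEAP1 copies hold the same 9 letters:
TXNRD1 downstream promoter: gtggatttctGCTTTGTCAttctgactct
GCLM promoter: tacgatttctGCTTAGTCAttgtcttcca
KEAP1 second promoter, nearer the start: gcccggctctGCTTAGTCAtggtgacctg
KEAP1 second promoter, farther from the start: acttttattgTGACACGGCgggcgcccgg

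The forkhead motif, present in 3.42% of all windows, and the SMAD motif, present in 0.202%, were found in 0 of the 11 windows of these genes. The windows of NFE2L2, GCLC, NQO1, TXN and SRXN1 held none of the 3 motifs. These matches describe letters in a short stretch of sequence. Binding was not measured here.

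Library totals ran from 14962245 to 25339094 estimated counts, and every member was above the low-count filter that left 13868 genes for testing. The scarcest member, HMOX1, had 321 to 553 counts per library and the most abundant, TXNRD1, 28047 to 48239. No replicate pair was identical. Of 13 granulosa markers 9 passed the filter. GATA4 (129 to 154 CPM, counts per 1000000 reads after TMM scaling) and WT1 (38.8 to 47.7 CPM) were highest beside the transfected FOXL2, INHBA (6.54 to 9.14 CPM), NR5A1 (3.83 to 6.40 CPM), HSD17B1, STAR, AMH and NR5A2 were low, FSHR had 0 counts in every library, and CYP19A1, INHA and AMHR2 stayed below the filter. Markers of theca cells (CYP17A1, INSL3) were at or near 0, and the pan-leukocyte marker PTPRC did not exceed 0.247 CPM, although CD68, a lysosomal protein of macrophages and other cells, ran from 88.8 to 117 CPM. The endothelial markers PECAM1 (0.673 to 2.31 CPM) and CDH5 (2.22 to 4.598 CPM) and the epithelial marker EPCAM (4.78 to 7.72 CPM) were low but detected. The other epithelial marker, CDH1 (0.0852 to 0.523 CPM), stayed below the filter. The transfected transcripts followed the labels but not in equal amounts. FOXL2 ran from 8.28 to 9.54 CPM in Vectors, from 554 to 566 CPM in FOXL2WT, from 121 to 175 CPM in FOXL2C134W, from 374 to 401 CPM in FOXL2WT + FOXO1 and from 139 to 176 CPM in FOXL2C134W + FOXO1. SMAD3 was likewise higher in FOXL2WT (2595 to 2889 CPM) than in FOXL2C134W (812 to 885 CPM), and each form had less SMAD3 with FOXO1 (957 to 976 CPM in FOXL2WT + FOXO1 and 379 to 411 CPM in FOXL2C134W + FOXO1). Counts do not separate the wild-type from the C134W transcript. FOXO1 was at 11.6 to 13.8 CPM without its plasmid, at 104 to 132 CPM in FOXL2WT + FOXO1 and at 39.1 to 47.2 CPM in FOXL2C134W + FOXO1. Every comparison of FOXL2C134W with FOXL2WT is therefore also a comparison of unequal FOXL2 and SMAD3 transcript levels. By immunoblot of parallel cultures, the paper reports balanced FOXL2WT, FOXL2C134W and FOXO1 protein, and it describes no blot of SMAD3. Protein levels were not analysed here, and the part of the transcript levels in the results below was not tested.

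HGrC1 cells expressed the whole set in every library. On the scale that allows genes to be compared with each other, TPM (transcripts per 1000000, scaled for length), TXNRD1 was the most abundant with a mean of 729 TPM over the 15 libraries (634 to 813), followed by TXN with 527 TPM (497 to 561) and NQO1 with 448 TPM (413 to 482). These 3 enzymes ranked 199, 273 and 320 among the 22764 genes detected. NFE2L2 itself followed at 127 TPM (113 to 142) and its inhibitor KEAP1 at 67.8 TPM (55.9 to 79.2). GCLM (45.9 TPM, 38.4 to 52.5), SRXN1 (43.5 TPM, 41.0 to 46.3), GCLC (22.5 TPM, 17.2 to 30.9) and HMOX1 (20.4 TPM, 16.4 to 23.0) were lowest. The order was the same in every library except at 2 places where neighbours overlapped: GCLM exceeded SRXN1 in 11 of 15 libraries, and GCLC exceeded HMOX1 in 11 of 15. All other neighbours had ranges that lay apart.

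**Figure D1:**
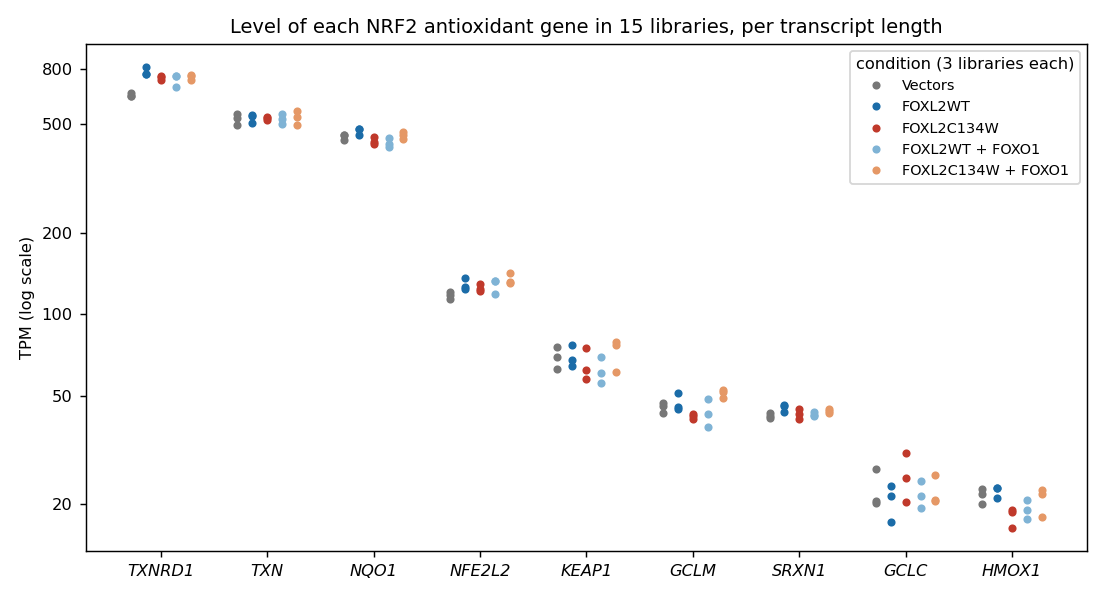
Level of each gene in TPM (vertical axis, log scale) with the 15 libraries as points coloured by condition. TXNRD1, TXN and NQO1 lie at 413 TPM or above in every library and HMOX1 and GCLC below 31 TPM, and the spread within a gene is small beside the distances between most genes.

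The genes differed in how many transcripts carried their signal. SRXN1 had 1 listed transcript, and TXN-202 made up 99.9% of the TPM of TXN. NFE2L2-201 held 83.6% of NFE2L2 (75.4% to 88.2% across libraries) and HMOX1-201 held 82.9% of HMOX1. NQO1 was divided among several forms led by NQO1-206 with 44.6%, and that share moved little (42.4% to 47.4%). TXNRD1 was spread over more forms, of which TXNRD1-208 held 26.2%, TXNRD1-206 held 22.4% and TXNRD1-214 held 19.0%. For GCLC the division was unstable, with GCLC-210, a form of 553 bases, estimated at 0% in some libraries and up to 39.3% in others. GCLM was led by a short form as well, GCLM-203 of 625 bases, at 42.5% ± 1.65 of GCLM in Vectors, 44.04% ± 1.35 in FOXL2WT and 35.8% ± 1.59 in FOXL2C134W (SD, n = 3), and at 48.1% ± 3.73 and 46.6% ± 2.04 with FOXO1 added to FOXL2WT and FOXL2C134W. These divisions are estimates from single-end reads, and they matter for GCLC and GCLM because their TPM, unlike their counts, depends on which form is credited.

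**Figure D2:**
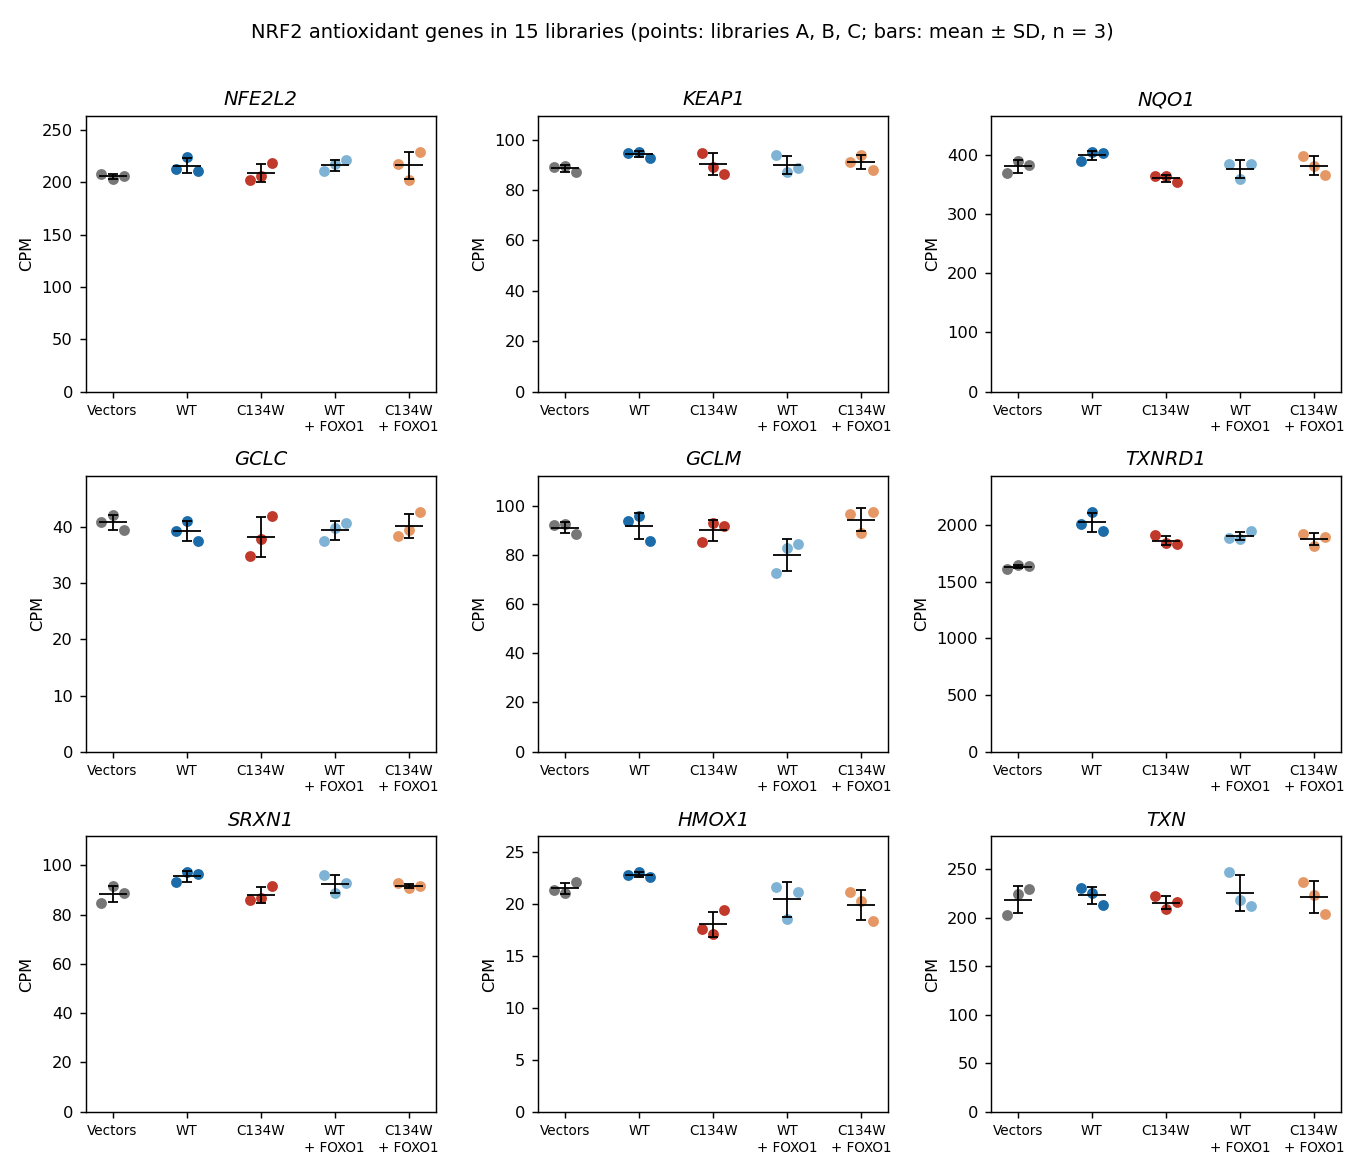
CPM of the 9 genes (1 panel each, vertical axis from 0) in the 5 conditions. Points are libraries A, B and C, and bars give the mean ± SD (n = 3). TXNRD1 is lowest in Vectors and HMOX1 is lowest in FOXL2C134W, while the condition means of NFE2L2 lie between 206 and 216 CPM.

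The regulators and their direct output can be read gene by gene on the CPM scale. NFE2L2 lay between 202 and 229 CPM in all 15 libraries, with condition means of 206 ± 2.44 CPM in Vectors, 216 ± 6.95 CPM in FOXL2WT and 209 ± 8.43 CPM in FOXL2C134W (SD, n = 3). KEAP1 lay between 86.4 and 95.1 CPM, TXN between 203 and 247 CPM and GCLC between 34.9 and 42.7 CPM. A test for any difference among the 5 conditions (edgeR quasi-likelihood, Benjamini-Hochberg over 13868 genes) called 2 of the 9 genes, TXNRD1 (adjusted p = 1.6e-04) and HMOX1 (adjusted p = 0.028), where it called 16.4% of all genes. GCLM came next without passing (edgeR adjusted p = 0.057), followed by NQO1 (0.10). NFE2L2, KEAP1, GCLC and TXN had edgeR adjusted p-values between 0.53 and 0.90. NRF2 protein and its location in the cell were not measured.

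TXNRD1, the cytosolic thioredoxin reductase (chr12:104215779-104350307, plus strand, GRCh38), was the member that separated cells given a FOXL2 plasmid from those given empty plasmids. In Vectors it stood at 1614, 1646 and 1634 CPM. In FOXL2WT it stood at 2006, 2112 and 1949 CPM, and in FOXL2C134W at 1909, 1838 and 1833 CPM. All 6 of these libraries, like the 6 that also received FOXO1, lay above all 3 Vectors libraries, and the lowest FOXL2WT library lay above the highest FOXL2C134W library. TXNRD1 rose by 0.31 on the log2 scale in FOXL2WT against Vectors (SE 0.04, 1.24-fold, edgeR adjusted p = 3.4e-05), and by 0.19 in FOXL2C134W against Vectors (SE 0.04, 1.14-fold, edgeR adjusted p = 0.0013). Under all 7 other analyses, and with any 1 of the 6 libraries left out, both calls remained.

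TXNRD1 was the only member called in FOXL2WT against Vectors, and it was called higher, as were 2.46% of all genes, whereas 3.61% of all genes and 0 members were called lower. Of the remaining 8, SRXN1, which reactivates oxidised peroxiredoxins, came closest, with 84.8, 91.4 and 88.9 CPM in Vectors and 93.1, 97.2 and 96.7 CPM in FOXL2WT. Its ranges did not overlap, but the difference of 0.11 (SE 0.04) missed the threshold (edgeR adjusted p = 0.14). NFE2L2, KEAP1, NQO1 and HMOX1 also had every FOXL2WT library above every control library, with log2 differences of 0.07, 0.09, 0.07 and 0.08 and edgeR adjusted p-values of 0.41, 0.28, 0.34 and 0.57. For NQO1 the lowest FOXL2WT library (389.765 CPM) was almost level with the highest Vectors library (389.719 CPM). In all, 6 of the 9 members had ranges that lay apart with FOXL2WT higher, as did 15.2% of all genes tested. The median log2 difference over the 9 members was 0.07, beside 0.00 over all genes tested.

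HMOX1, heme oxygenase 1 (chr22:35380361-35394214, plus strand, GRCh38), was the only member called lower in FOXL2C134W against both Vectors and FOXL2WT. Its 3 libraries with FOXL2C134W gave 17.6, 17.0 and 19.4 CPM. Vectors gave 21.3, 21.1 and 22.1 CPM, and FOXL2WT gave 22.7, 23.0 and 22.6 CPM. Every FOXL2C134W library lay below every library of the other 2 conditions, as was also the case for NQO1, and replicate C was the highest of the 3 for HMOX1. The share of all genes that lay below both conditions in this way was not computed. Against Vectors, HMOX1 fell by 0.26 on the log2 scale (SE 0.07, 95% interval -0.41 to -0.10, edgeR adjusted p = 0.024). That call was lost without Vectors A (edgeR adjusted p = 0.06), B (0.052) or C (0.1) and without FOXL2C134W A (0.067) or B (0.13), and it was kept without FOXL2C134W C (0.019). With DESeq2 and transcript length offsets the HMOX1 difference was -0.27 and the adjusted p 0.17.

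In FOXL2C134W against Vectors, 2 of the 9 members were called, TXNRD1 higher and HMOX1 lower, where 7.48% of all genes were called higher and 7.24% lower. NQO1, a quinone reductase (chr16:69706996-69726668, minus strand, GRCh38), also lay lower without overlap, at 363, 363 and 353 CPM against 369, 390 and 382 CPM in Vectors. Its difference of -0.08 (SE 0.04) was not called (edgeR adjusted p = 0.21). The share of all genes lower without overlap in this comparison was not computed. GCLC differed by -0.10 (SE 0.07, edgeR adjusted p = 0.36), a value whose sign turned with transcript length offsets (0.15).

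The direct comparison of FOXL2C134W with FOXL2WT, the contrast on which the study turns, called 3 of the 9 members, all lower in FOXL2C134W: HMOX1, NQO1 and TXNRD1. Over all genes, 4.12% were called lower and 7.13% higher, and 0 members were called higher. This comparison shares its libraries with the 2 against Vectors, so the values are shown side by side and are not independent of them. HMOX1 fell by 0.34 on the log2 scale (SE 0.07, 95% interval -0.50 to -0.18, 0.790-fold, edgeR adjusted p = 0.0062), and the call held without any 1 of the 6 libraries (edgeR adjusted p from 0.0075 to 0.047). The HMOX1 call was lost with transcript length offsets in DESeq2 (adjusted p = 0.065), at a difference of the same size, -0.34. That setting is the closest here to the paper's method, which ran DESeq2 on imported transcript estimates. With it, 1 of the 9 members was called in this contrast, NQO1.

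NQO1 stood at 390, 404 and 403 CPM in FOXL2WT and at 363, 363 and 353 CPM in FOXL2C134W, with no overlap. It fell by 0.15 (SE 0.04, 0.902-fold, edgeR adjusted p = 0.021). The NQO1 call held in all 7 other analyses but was lost without FOXL2WT B (edgeR adjusted p = 0.1), FOXL2WT C (0.084), FOXL2C134W B (0.071) or FOXL2C134W C (0.093), the log2 difference remaining between -0.16 and -0.13. TXNRD1 fell by 0.12 (SE 0.04, 0.920-fold, edgeR adjusted p = 0.033) and stayed above Vectors. The TXNRD1 call was lost without FOXL2WT A (edgeR adjusted p = 0.073), FOXL2WT B (0.22), FOXL2C134W B (0.16) or FOXL2C134W C (0.12), and without FOXL2WT B its difference shrank to -0.08. It was also lost with transcript length offsets (DESeq2 adjusted p = 0.069) and with only the groups compared (edgeR adjusted p = 0.064). FOXL2 and SMAD3 transcripts were also lower in FOXL2C134W than in FOXL2WT, by 1.93 and 1.72 on the log2 scale in the same fit, and the part of that difference in these results was not tested.

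SRXN1 also lay lower without being called, with 85.7, 86.7 and 91.6 CPM in FOXL2C134W, all below the 93.1 CPM of the lowest FOXL2WT library (log2 difference -0.12, SE 0.04, edgeR adjusted p = 0.087). Thus 4 of the 9 members lay lower without overlap, as did 15.6% of all genes tested, and the other 5 overlapped between the 2 conditions. The 95% interval of the log2 difference was -0.14 to 0.05 for NFE2L2, -0.15 to 0.03 for KEAP1 and -0.18 to 0.08 for TXN. For GCLC it ran from -0.18 to 0.10 and for GCLM from -0.15 to 0.10. The HMOX1 estimate of -0.34 lay outside all 5 of these edgeR intervals, though the interval of HMOX1 itself reached -0.18. Under other analyses the difference reached -0.19 for GCLM and 0.27 for GCLC, beyond the intervals given for them. The sign of the GCLC and GCLM differences (-0.04 and -0.03) changed when single libraries were left out, and that of GCLC also with length offsets (0.27). The median over the 9 members was -0.06, beside -0.01 over all genes tested.

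**Figure D3:**
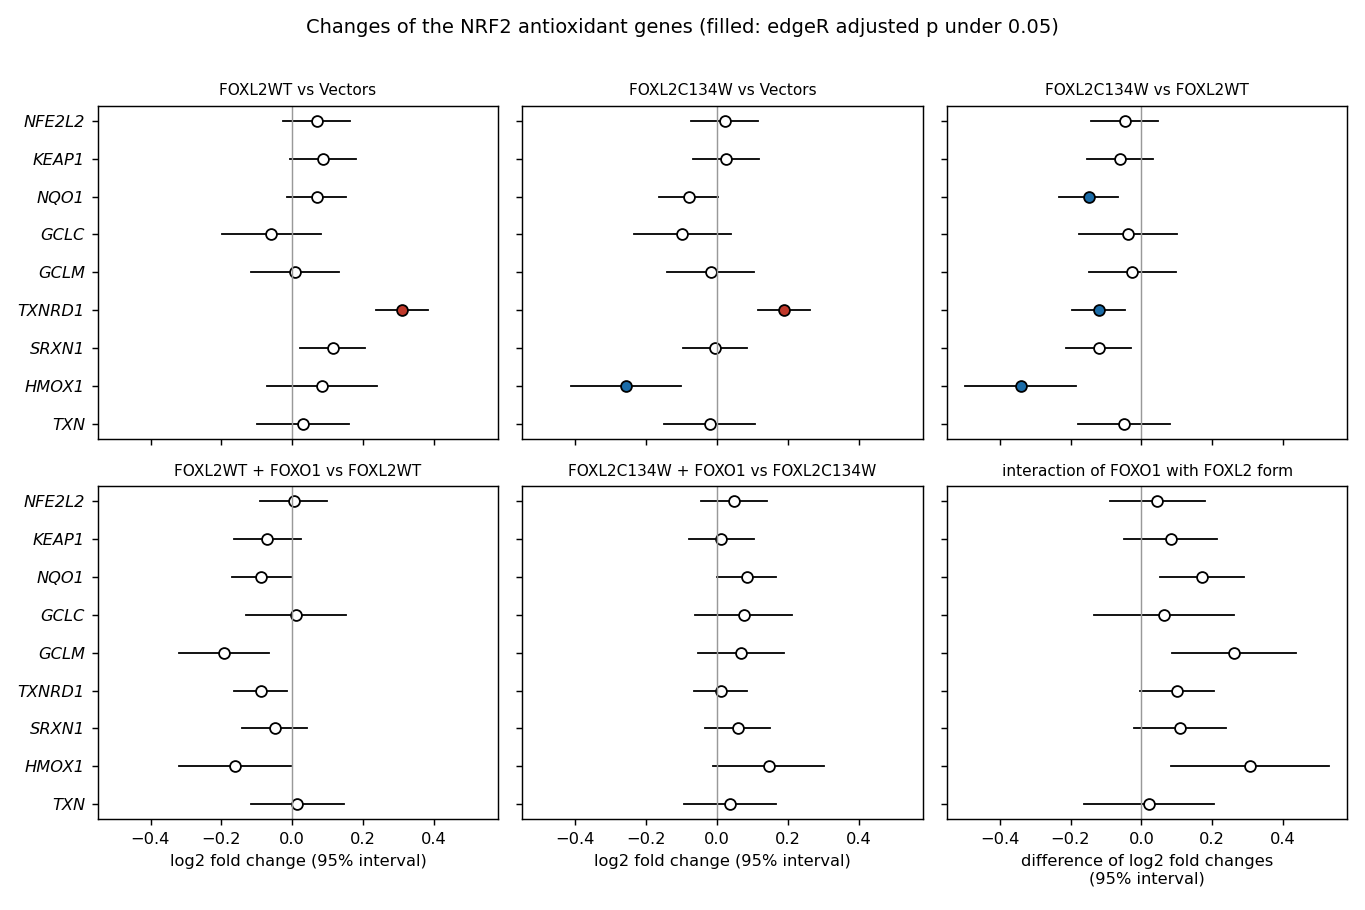
Log2 fold change of the 9 genes with its 95% interval (horizontal axis) in 5 comparisons of conditions and, at the lower right, the difference between the effect of FOXO1 in FOXL2C134W and its effect in FOXL2WT. Filled points passed an edgeR adjusted p of 0.05: TXNRD1 against Vectors in both panels, HMOX1 lower in FOXL2C134W against Vectors, and HMOX1, NQO1 and TXNRD1 lower in FOXL2C134W against FOXL2WT.

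Adding FOXO1 changed 0 of the 9 members by a called amount in either background in edgeR. DESeq2 also called 0, of 8 members to which it gave an adjusted p beside FOXL2WT and of 9 beside FOXL2C134W. Other settings called GCLM: beside FOXL2WT when every gene with at least 1 count was kept (edgeR adjusted p = 0.045), and beside FOXL2C134W with transcript length offsets (log2 difference 0.29, DESeq2 adjusted p = 0.033). The FOXO1 plasmid also went with lower SMAD3 transcripts, by 1.51 on the log2 scale beside FOXL2WT and by 1.11 beside FOXL2C134W, and with lower FOXL2 transcripts beside FOXL2WT, by 0.55, and the part of these levels was not tested. In FOXL2WT + FOXO1 against FOXL2WT, 0.0144% of all genes were called higher and 0.0361% lower, so that calls were rare everywhere. At an unadjusted p under 0.05, 4 members were lower with FOXO1, GCLM, TXNRD1, NQO1 and HMOX1, where 9.13% of all genes had such a p in either direction. GCLM, the modifier subunit of glutamate-cysteine ligase, gave the largest difference. It stood at 93.8, 95.8 and 85.6 CPM in FOXL2WT and at 72.5, 82.7 and 84.4 CPM in FOXL2WT + FOXO1, without overlap, replicate A of the FOXO1 condition being the lowest of all 15 libraries. The log2 difference of GCLM was -0.19 (SE 0.06, edgeR adjusted p = 0.33), and it was -0.13 without that library (edgeR adjusted p = 0.47). HMOX1 differed by -0.16 (SE 0.08), NQO1 by -0.09 (SE 0.04) and TXNRD1 by -0.09 (SE 0.04), with edgeR adjusted p-values of 0.54, 0.53 and 0.48, and for each the FOXO1 libraries lay below all FOXL2WT libraries. With GCLM these were 4 of 9 members lower without overlap, beside 7.56% of all genes tested.

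In FOXL2C134W + FOXO1 against FOXL2C134W, 0.00721% of all genes were called higher and 0.707% lower. Log2 differences were above 0 for all 9 members, measured in the same libraries, with a median of 0.06 beside 0.00 over all genes tested. The share of all genes above 0 was not computed. Of the members 0 were called and 1 (NQO1) had an unadjusted p under 0.05, beside 11.2% of all genes. NQO1 stood at 398, 381 and 365 CPM with FOXO1 and at 363, 363 and 353 CPM without. The lowest FOXO1 library thus lay just above the highest without it (log2 difference 0.08, SE 0.04, edgeR adjusted p = 0.44). The share of all genes higher without overlap in this comparison was not computed. HMOX1 stood at 21.1, 20.3 and 18.3 CPM with FOXO1, which overlaps the 17.0 to 19.4 CPM of FOXL2C134W (log2 difference 0.15, SE 0.07, edgeR adjusted p = 0.49). GCLM differed by 0.07 (SE 0.06, edgeR adjusted p = 0.75).

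With FOXO1 present in both, few genes were called between FOXL2C134W and FOXL2WT in the main analysis (20, beside 137 by DESeq2). The number was 9 with only the groups compared and 446 when every gene with at least 1 count was kept. In this comparison 0.0361% of all genes were called higher in FOXL2C134W + FOXO1 and 0.108% lower, and edgeR called 0 members, whereas DESeq2 called GCLM (adjusted p = 0.021). HMOX1 (18.3 to 21.1 against 18.5 to 21.6 CPM), NQO1 (365 to 398 against 358 to 385 CPM) and TXNRD1 (1812 to 1922 against 1873 to 1942 CPM), the 3 genes that separated the forms without FOXO1, overlapped. GCLM alone did not overlap, where 7.36% of all genes lay higher without overlap, at 96.6, 89.0 and 97.4 CPM in FOXL2C134W + FOXO1 (log2 difference 0.24, SE 0.06, edgeR adjusted p = 0.13), and it was the 1 member with an unadjusted p under 0.05, beside 13.5% of all genes. Without replicate A of FOXL2WT + FOXO1 the GCLM difference was 0.17 (edgeR adjusted p = 0.45).

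Whether FOXO1 acted differently in the 2 backgrounds was tested as an interaction, the effect of FOXO1 in FOXL2C134W minus its effect in FOXL2WT. By edgeR, and by DESeq2 without length offsets, it called 0 members, against 0.137% of all genes called higher and 1.25% lower. The interaction used the same FOXL2WT and FOXL2C134W libraries as the contrast of those conditions. HMOX1 had an interaction of 0.31 on the log2 scale (SE 0.11, 95% interval 0.08 to 0.53, edgeR adjusted p = 0.19), GCLM of 0.26 (SE 0.08, 0.09 to 0.44, adjusted p = 0.15) and NQO1 of 0.17 (SE 0.06, 0.05 to 0.29, adjusted p = 0.17). These 3 had an unadjusted p under 0.05, as did 12.5% of all genes. The GCLM interaction was called with transcript length offsets (0.39, DESeq2 adjusted p = 0.04) and when every gene with at least 1 count was kept (edgeR adjusted p = 0.03). TXNRD1 followed with 0.10 (SE 0.05, edgeR adjusted p = 0.43). The median over the members was 0.10, beside 0.01 over all genes tested. FOXO1 transcripts were fewer in FOXL2C134W + FOXO1 than in FOXL2WT + FOXO1, by 1.44 on the log2 scale, and the part of that in the interaction was not tested.

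Patterns over the 15 libraries were compared as the root mean square difference of standardised log2-CPM, a description over libraries that share conditions. Within the set, HMOX1 and NQO1 were most alike (0.585), followed by NQO1 and SRXN1 (0.751) and HMOX1 and SRXN1 (0.832), whereas KEAP1 and GCLC were least alike (1.70). Among all genes tested, the 2 nearest to TXNRD1 were ASNS, asparagine synthetase (0.177), and MTHFD2, a mitochondrial folate enzyme (0.219). The 2 nearest to HMOX1 were CMTR1, a cap methyltransferase (0.424), and C12orf76 (0.435).

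The wider pathway was read from 7 lists of 82 genes, of which 79 passed the filter. In FOXL2WT against Vectors 7 were called higher and 4 lower, beside 2.46% and 3.61% of all genes, with a median log2 difference of -0.03 (0.00 over all genes). In FOXL2C134W against Vectors 3 were called higher and 21 lower, beside 7.48% and 7.24% of all genes, with a median of -0.11 (0.00 over all genes). In FOXL2C134W against FOXL2WT 2 were called higher and 14 lower, beside 7.13% and 4.12% of all genes, with a median of -0.08 (-0.01 over all genes). EdgeR called 0 of the 79 in each of the 4 comparisons that involve FOXO1. With FOXO1 added to FOXL2WT, 11 of the 79 had an unadjusted p under 0.05, beside 9.13% of all genes, and DESeq2 called 3. With FOXO1 added to FOXL2C134W 8 had such a p, beside 11.2% of all genes, and DESeq2 called 0. Between the forms with FOXO1 these numbers were 20, beside 13.5%, and 1, and in the interaction 11, beside 12.5%, and 2.

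**Figure D4:**
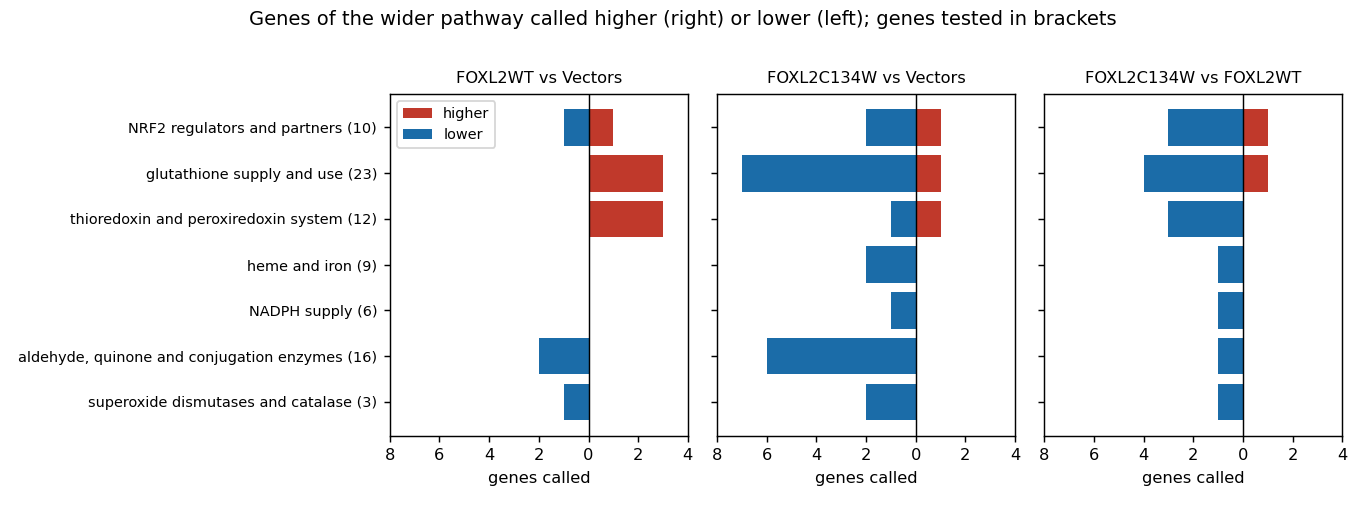
Number of genes of each list called higher (right of 0) or lower (left of 0) by edgeR in 3 comparisons, with the number tested in brackets. In FOXL2C134W against Vectors the glutathione list has 7 genes lower and 1 higher, and the list of aldehyde, quinone and conjugation enzymes has 6 lower and 0 higher. Over all genes tested, 7.24% were called lower and 7.48% higher in that comparison.

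Among regulators and partners of NRF2, 10 genes were tested. In FOXL2C134W against FOXL2WT 3 were lower and 1 higher, beside 4.12% and 7.13% of all genes. SQSTM1, an autophagy receptor that sequesters KEAP1 and is itself an NRF2 target, stood at 597 ± 9.87 CPM in FOXL2WT and 491 ± 21.7 CPM in FOXL2C134W (SD, n = 3) and fell by 0.28 (SE 0.04, edgeR adjusted p = 4.5e-04). It was also lower than in Vectors, by 0.26 (SE 0.04, edgeR adjusted p = 5.7e-04), and neither SQSTM1 call held with transcript length offsets in DESeq2 (adjusted p = 0.14 and 0.37). Of the small MAF partners, MAFF fell by 0.34 (SE 0.05, edgeR adjusted p = 4.7e-04) and MAFG by 0.23 (SE 0.05, edgeR adjusted p = 0.0053) against FOXL2WT, the latter not called with length offsets (DESeq2 adjusted p = 0.07). MAFK rose against Vectors in both forms, by 0.23 in FOXL2WT (SE 0.06, edgeR adjusted p = 0.042, a value printed after it was seen) and by 0.22 in FOXL2C134W (SE 0.06, edgeR adjusted p = 0.025). CUL3, the ligase scaffold that acts with KEAP1, rose by 0.19 against FOXL2WT (SE 0.05, edgeR adjusted p = 0.027). NFE2L1, a relative of NRF2, fell by 0.16 in FOXL2WT against Vectors (SE 0.04, edgeR adjusted p = 0.036). BACH1, the competing repressor, differed by -0.08 between the forms (SE 0.06, edgeR adjusted p = 0.45). BACH1 was called in 0 of the 7 other analyses, over which its difference reached -0.40. With single libraries left out, the MAFK call in FOXL2WT held in 0 of 6 fits, those of MAFK in FOXL2C134W and of CUL3 in 2 of 6, and that of NFE2L1 in 1 of 6. Of the 7 other analyses, 5 kept the MAFK call in FOXL2WT, and the lowest difference over the 7 was 0.04. The MAFK call in FOXL2C134W was likewise kept in 5 of 7.

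In the glutathione list of 23 genes, both subunits of the cystine transporter that feeds glutathione synthesis rose in FOXL2WT against Vectors. SLC7A11 went from 297 ± 15.5 to 393 ± 34.6 CPM (log2 0.40, SE 0.06, edgeR adjusted p = 6.4e-04) and SLC3A2 from 352 ± 24.4 to 470 ± 18.9 CPM (log2 0.42, SE 0.06, edgeR adjusted p = 3.7e-04). SLC7A11 also rose in FOXL2C134W against Vectors, by 0.37 (SE 0.06, edgeR adjusted p = 4.8e-04), and did not differ by a called amount between the forms (-0.03, SE 0.06, edgeR adjusted p = 0.79). SLC3A2, whose other comparisons were chosen for printing after they were seen, was not called in FOXL2C134W against Vectors (0.17, SE 0.06, edgeR adjusted p = 0.067). There it was called in 3 of the 7 other analyses and in 0 of 6 fits that left out a library. SLC3A2 fell in FOXL2C134W against FOXL2WT by 0.25 (SE 0.06, edgeR adjusted p = 0.013), a call that was lost without FOXL2WT B (0.087), FOXL2C134W B (0.088) or FOXL2C134W C (0.071). Between the forms 4 genes of this list were lower and 1 was higher, beside 4.12% and 7.13% of all genes. The lower ones besides SLC3A2, also named after their values were seen, were the glutathione transferases GSTM3 and GSTO1 and the glyoxalase GLO1. ABCC1, an exporter of glutathione conjugates, was the 1 that rose in FOXL2C134W against FOXL2WT by 0.24 (SE 0.05, edgeR adjusted p = 0.007).

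In the thioredoxin and peroxiredoxin list of 12 genes, SESN2, a stress-induced sestrin, rose in FOXL2WT against Vectors by 0.57 (SE 0.09, edgeR adjusted p = 6.6e-04) and in FOXL2C134W by 0.28 (SE 0.09, edgeR adjusted p = 0.037). The second SESN2 call held in 1 of 6 fits that left out a library. TXNIP, which binds and inhibits thioredoxin, stood at 208 ± 6.58 CPM in Vectors, 187 ± 9.25 CPM in FOXL2WT and 152 ± 9.14 CPM in FOXL2C134W (SD, n = 3). TXNIP fell in FOXL2C134W by 0.45 against Vectors (SE 0.05, edgeR adjusted p = 7.3e-06) and by 0.30 against FOXL2WT (SE 0.05, edgeR adjusted p = 6.8e-04). PRDX1, an abundant peroxiredoxin, differed by -0.06 between the forms (SE 0.04, edgeR adjusted p = 0.26). Beside 4.12% of all genes lower and 7.13% higher between the forms, 3 genes of this list were lower and 0 higher. Those besides TXNIP, named after their values were seen, were the peroxiredoxin PRDX3 and SESN2. PRDX3 differed by -0.19 (SE 0.05, edgeR adjusted p = 0.023) and SESN2 by -0.29 (SE 0.09, edgeR adjusted p = 0.037).

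SOD2, the mitochondrial superoxide dismutase and a known target of FOXO factors, stood at 213 ± 13.6 CPM in Vectors, 151 ± 10.6 CPM in FOXL2WT and 125 ± 11.7 CPM in FOXL2C134W (SD, n = 3). SOD2 fell against Vectors by 0.49 in FOXL2WT (SE 0.07, edgeR adjusted p = 1.5e-04) and by 0.77 in FOXL2C134W (SE 0.07, edgeR adjusted p = 6.7e-07), and by 0.28 between the forms (SE 0.07, edgeR adjusted p = 0.011), a difference not called without FOXL2WT C (adjusted p = 0.082) or FOXL2C134W B (0.067). Catalase (CAT), which removes hydrogen peroxide, differed between the forms by 0.07 (SE 0.06, edgeR adjusted p = 0.45). With FOXO1 added, SOD2 was at 143 ± 2.75 CPM beside FOXL2WT and 118 ± 7.72 CPM beside FOXL2C134W, and neither differed by a called amount from the same form without FOXO1.

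Of the ferritin subunits, which store the iron that heme oxygenase frees, the light chain FTL fell in FOXL2C134W against FOXL2WT from 782 ± 23.4 to 665 ± 38.3 CPM (log2 -0.23, SE 0.05, edgeR adjusted p = 0.007). The FTL call held in 4 of 6 fits that left out a library, and its edgeR adjusted p was 0.055 without FOXL2C134W B. The heavy chain FTH1 differed by -0.13 (SE 0.04, edgeR adjusted p = 0.052). FTH1 was called in 4 of the 7 other analyses and in 0 of 6 fits that left out a library. The AKR1C genes, near-identical aldo-keto reductases that are strong NRF2 targets in other cells, were close to silent, and their counts are uncertain because reads can be shared among copies. AKR1C1 did not exceed 1.09 CPM, AKR1C2 failed the filter, and AKR1C3 was at 0.945 ± 0.292 CPM in Vectors and 0.181 ± 0.0459 CPM in FOXL2WT (SD, n = 3; log2 -2.39, SE 0.48, edgeR adjusted p = 0.0051).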

How the data were processed

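RNA of 15 HGrC1 libraries was analysed, 3 for each of 5 conditions assigned from the sample labels. The authors quantified 75-bp single-end reads of stranded poly-A libraries with Salmon 1.1.0 on hg38 transcripts and deposited estimated counts per gene, summed over transcripts, rounded and not normalised. They also deposited TPM, estimated counts and effective lengths for 227063 transcripts per library, which were used for levels between genes, transcript shares and length offsets. TPM values were summed over the transcripts of a gene. From the gene counts, libraries were scaled by TMM, low counts were removed with filterByExpr (13868 of 37787 genes kept) and all conditions were fitted together with the quasi-likelihood test of edgeR 4.0.16 (R 4.3.3). A gene was called at a Benjamini-Hochberg adjusted p below 0.05, computed over all genes tested. Standard errors are the log2 difference divided by the square root of the F statistic. The replicates are separate samples by their labels, but separate cultures are not stated, so p-values measure the spread between these samples. The procedure was tested on simulated data. Alternatives were DESeq2 1.42.0 with and without transcript length offsets, its size factors within edgeR, 2 other filters, only the groups compared, a replicate block, and each library left out in turn. In addition to the members, the genes named were the called genes of 7 pathway lists with the 3 smallest p-values in each direction of a comparison, a fixed set of common NRF2 or FOXO targets and partners (1 of them is not reported here), the transfected genes, and the 2 genes nearest in pattern to TXNRD1 and HMOX1. The members and lists were chosen with earlier results of these data known. Gene positions are from GENCODE 44 (GRCh38), and the annotation release behind the deposited tables is not given in the sources used here.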

Additional observations from a re-analysis of the deposited data

Results flagged for a closer look

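NQO1 lay on opposite sides of its level without FOXO1 when FOXO1 was added to the 2 forms of FOXL2. All 3 libraries of FOXL2WT + FOXO1 (383, 358 and 385 CPM) lay below all 3 of FOXL2WT (390, 404 and 403 CPM), and all 3 of FOXL2C134W + FOXO1 (398, 381 and 365 CPM) lay above all 3 of FOXL2C134W (363, 363 and 353 CPM). Of all genes tested, 7.56% lay lower without overlap in FOXL2WT + FOXO1 against FOXL2WT. The share higher in FOXL2C134W + FOXO1 against FOXL2C134W was not computed. Without FOXO1 the forms already differed, with means of 399 CPM in FOXL2WT and 360 CPM in FOXL2C134W. With FOXO1 the means were 375 and 381 CPM, beside 380 CPM in Vectors. The difference between the 2 effects of FOXO1 was tested as an interaction on the same libraries, which gave 0.17 on the log2 scale (SE 0.06). Its edgeR adjusted p was 0.17, so it did not pass. Over the alternatives the adjusted p ran from 0.074 to 0.43. Groups of 3 libraries were not tested for single outlying samples.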

How the results depend on the processing

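Of the 60 gene-level differences recomputed, 28 were called, and 0 of these 28 changed direction under any alternative. The number of members called in FOXL2WT against Vectors stayed at 1 under every alternative, TXNRD1. With transcript length offsets in DESeq2, the members called became 1 in FOXL2C134W against Vectors (2 in the main analysis), 1 in FOXL2C134W against FOXL2WT (3), 1 in FOXL2C134W + FOXO1 against FOXL2C134W (0, now GCLM) and 1 in the interaction (0, GCLM). DESeq2 without offsets called 1 in FOXL2C134W + FOXO1 against FOXL2WT + FOXO1 (0, GCLM) and 4 in the test across conditions (2). Keeping every gene with at least 1 count called 1 in each of FOXL2WT + FOXO1 against FOXL2WT, FOXL2C134W + FOXO1 against FOXL2WT + FOXO1 and the interaction (GCLM in each). Leaving out a library gave 1 to 2 members in FOXL2C134W against Vectors, 1 to 3 in FOXL2C134W against FOXL2WT, 1 to 3 across conditions and 0 in every comparison with FOXO1. The cause of these changes was not tested. Signs turned only for differences that were not called. With length offsets GCLC became 0.15 in FOXL2C134W against Vectors and 0.27 against FOXL2WT, and when single libraries were left out the log2 difference from FOXL2WT ran from -0.11 to 0.032 for GCLC, from -0.067 to 0.021 for GCLM and from -0.082 to 0.045 for SLC7A11.

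Over all genes, calls in FOXL2WT against Vectors went from 842 to 459 with length offsets, 1345 with the filter of 1 count and 1690 with only the groups compared. Length offsets took FOXL2C134W against Vectors from 2041 to 936 and FOXL2C134W against FOXL2WT from 1560 to 708. In FOXL2WT + FOXO1 against FOXL2WT 7 calls became 62 with DESeq2, 62 with length offsets, 260 and 13 with the filters of 1 count and of 10 counts in every library, and 14 with only the groups compared. In the same order, 99 calls in FOXL2C134W + FOXO1 against FOXL2C134W became 214, 56, 463, 170 and 32, and 20 in FOXL2C134W + FOXO1 against FOXL2WT + FOXO1 became 137, 63, 446, 32 and 9. The interaction went from 192 to 365, 113 and 551 with the first 3 of these, and the test across conditions from 2268 to 3515 with the filter of 1 count.

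Replicate letters did not pair the libraries: deviations from the condition means correlated between -0.164 and 0.166 over 30 same-letter pairs, and 5 of 15 libraries correlated best with their own letter. With the replicate block the members called were 1, 2 and 3 in the comparisons without FOXO1, 0 in the 4 with it and 2 across conditions, as without the block, and calls over all genes ran from 7 to 2245. The SE of the log2 difference between FOXL2C134W and FOXL2WT was 0.07 for HMOX1 and GCLC, the members with the fewest counts, 0.06 for TXN and GCLM, and 0.04 for TXNRD1, and the part of depth in these was not tested.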
